A study of Homo sapiens with 3 samples.

Results

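CFTR, on chromosome 7, encodes the cystic fibrosis transmembrane conductance regulator. The peaks described here are all peaks for SOX4 and STAT6 that overlapped CFTR or the 1000 bp on either side of it. They number 46 of the 5591 peaks of both lists, namely 21 of 4513 SOX4 peaks and 25 of 1078 STAT6 peaks. The members were chosen on measured values, since the positions of the peaks put them at CFTR and the gene was picked with its number of peaks known. Their number and their concentration in the gene are therefore a description and carry no test.

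Hep3B, an established human liver cancer cell line, was the source of all 3 libraries. Antibodies to SOX4, to STAT6 and a non-specific IgG, which gives the background, were used for 1 library each. All were prepared by CUT&RUN, in which a nuclease bound to the antibody cuts the chromatin around the antibody's sites and releases the DNA. The labels of these libraries name no treatment or gene deletion, and the study asked which sites and genes the transcription factors have in common. Each antibody had 1 library, so no value has a replicate check, no p-value was computed, and the comparisons are between these libraries only. Both lists were called by the authors against the same IgG library, so the lists are not independent of each other at a site. The files give no read numbers, so the depth is unknown and a site without a peak may lie below what the depth could show.

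CFTR is a chloride and bicarbonate channel in the apical membrane of epithelia such as those of airway, pancreas, gut and bile duct, and its loss causes cystic fibrosis. It is a member of the C subfamily of ATP-binding cassette (ABC) transporters and is opened by phosphorylation through cyclic AMP and protein kinase A. In the liver the protein is known from the cells that line the bile ducts, whereas hepatocytes are regarded as largely lacking it. SOX4 is a transcription factor of the SRY-related high-mobility-group family, and STAT6 is the transcription factor activated by interleukin-4 and interleukin-13.

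In assembly GRCh38.p14, the RefSeq annotation places CFTR at chr7:117480025-117668665 on the plus strand, a length of 188641 bp. The first peak of each list lay on the start of the gene. The promoter is therefore shown, as the 250 bases before the annotated start (plus strand, chr7:117479775-117480024, RefSeq, GRCh38.p14). The 84 bases under the first STAT6 peak are in capitals, and the whole stretch lies under the first SOX4 peak.

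CFTR promoter: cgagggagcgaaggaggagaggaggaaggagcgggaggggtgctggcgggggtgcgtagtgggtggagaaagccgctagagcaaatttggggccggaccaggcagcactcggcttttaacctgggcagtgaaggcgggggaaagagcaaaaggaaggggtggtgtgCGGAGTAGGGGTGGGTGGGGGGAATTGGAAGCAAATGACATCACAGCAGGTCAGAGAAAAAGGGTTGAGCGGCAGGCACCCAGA

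This stretch had a GC content of 61.2%. The first SOX4 peak, chr7:117479328-117480833, began 697 bp before the start of CFTR and ended 808 bp after it. The first STAT6 peak, chr7:117479941-117480288, began 84 bp before the start and ended 263 bp after it. Both summits, the positions of highest signal, fell just downstream of the start, at 63 bp for SOX4 and at 39 bp for STAT6. In the whole RefSeq promoter table, 0.555% of 35116 promoter windows overlapped a SOX4 peak and 0.31% overlapped a STAT6 peak. The window of 300 bases around the CFTR start (250 before to 50 after) was searched on both strands for the SOX letters NNCAANG, with A or T at each N, and for the STAT letters TTC and GAA separated by 4 bases. Neither occurred in it, while 20.4% of all promoter windows held the SOX letters and 6.44% held the STAT letters. A match of letters is a description only, and nothing about the factors is drawn from its lack.

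The peak at the promoter was not the highest of its list at CFTR in either library. By fold enrichment over IgG, the authors' ratio of the signal of the antibody to that of IgG, the promoter SOX4 peak stood at 103 and ranked 8 of 21. The promoter STAT6 peak stood at 6.01 and ranked 23 of 25. The remaining 44 peaks lay further inside the gene.

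Both lists held peaks along the whole of CFTR (plot of peaks along the gene). The SOX4 peaks covered 42.5 kb or 22.5% of the gene, and the STAT6 peaks covered 17.9 kb or 9.48%. Per 10 kb of the gene with its margin there were 1.10 SOX4 peaks and 1.31 STAT6 peaks. With CFTR divided into 4 stretches of equal length, these held, from its start to its end, 3, 6, 7 and 5 SOX4 summits and 3, 8, 8 and 6 STAT6 summits. The stretch at the start held the fewest in both lists. Every summit of the 46 peaks lay between the annotated ends of CFTR, so the margin of 1000 bp added none. Only the outermost peaks crossed an end of the gene, where the last SOX4 peak passed the end by 761 bp and the last STAT6 peak by 389 bp.

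**Figure D1:**
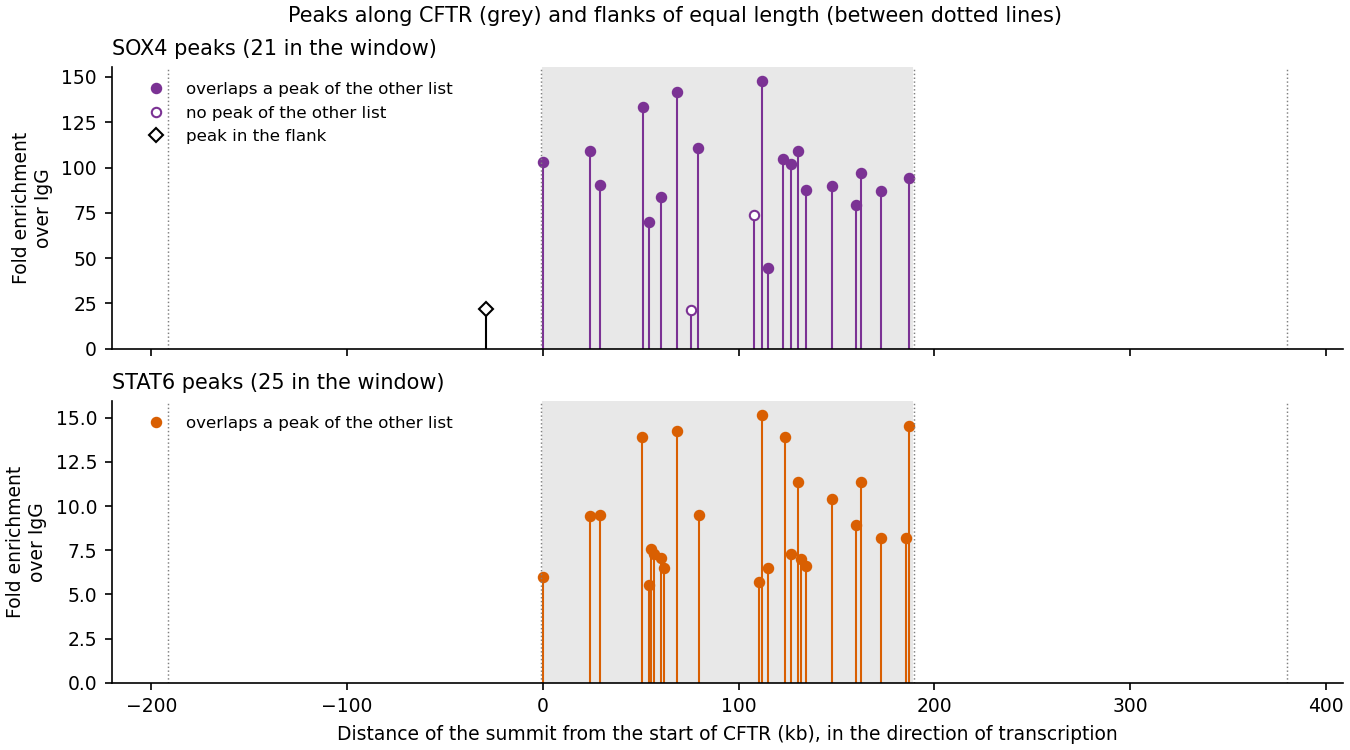
Fold enrichment over IgG of each SOX4 peak (top) and each STAT6 peak (bottom) against the distance of its summit from the start of CFTR in kb, with the gene in grey and the ends of the window and of flanks of equal length as dotted lines. Filled points overlap a peak of the other list, open circles do not, and the diamond is the one flank peak. The 21 SOX4 and 25 STAT6 peaks lie along the gene, and the flanks hold 1 SOX4 peak and 0 STAT6 peaks.

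The SOX4 peaks of CFTR were high in their own list. Their fold enrichment ranged from 21.4 to 148, with a median of 94.3 and quartiles of 83.5 and 109, against a median of 5.88 over all 4513 SOX4 peaks. All 21 ranked in the upper 25% of the SOX4 list by fold enrichment, and 17 in the upper 10%. Their −log10 q is the authors' adjusted significance of a peak over IgG and no measure of its height. It ranged from 118 to 1480 with a median of 933, against 15.3 over the list. The highest, SOX4 peak 11 (numbered from the start of CFTR), lay at chr7:117589653-117593371 and ranked 79 in the list. The next were peak 7 at chr7:117547909-117549552, with a fold enrichment of 142, and peak 4 at chr7:117530160-117531845, with 134. Only peak 8 lay far below the rest: at 21.4 it ranked 843, and the next lowest, peak 12, stood at 44.4. The other 19 ranged from 70.1 upward.

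The STAT6 peaks of CFTR took no such place in their list. Their fold enrichment ranged from 5.51 to 15.2, with a median of 8.22 and quartiles of 6.99 and 11.4, against a median of 7.27 over all 1078 STAT6 peaks. Of the 25, 1 ranked in the upper 10% of the STAT6 list, 7 in the upper 25% and 16 in the upper 50%. Their −log10 q ranged from 6.98 to 47.4 with a median of 15.0, slightly below the 17.1 of the list. Ranks in the lists are not alike, since 848 of 1078 STAT6 peaks overlapped the other list and 640 of 4513 SOX4 peaks did. Among these paired peaks the median fold enrichment was 8.54 for STAT6 and 95.5 for SOX4. The paired peaks at CFTR had medians near these, 8.22 for STAT6 and 97.1 for SOX4. The highest by fold enrichment, STAT6 peak 13, lay at chr7:117591757-117593006 inside the highest SOX4 peak, and ranked 106. The second highest, STAT6 peak 25 at the end of the gene, stood at 14.5 and had the highest −log10 q. The lowest was STAT6 peak 5, at chr7:117534021-117534500. At CFTR, 3 pairs of STAT6 peaks (peaks 3 and 11, 17 and 22, 23 and 24) had identical fold enrichment, p and q, which held for no SOX4 peaks at CFTR. In the lists as a whole, 42.2% of STAT6 peaks and 57.9% of SOX4 peaks had all these values in common with another peak of the list. How the IgG background at a site was set is not given. The fold enrichment therefore need not rest on IgG reads counted at that site, and the origin of the equal values was not tested.

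Widths differed between the lists at CFTR. The SOX4 peaks measured 1259 to 5440 bp with a median of 1612 bp, against 891 bp in the SOX4 list. The STAT6 peaks measured 325 to 2418 bp with a median of 613 bp, against 576 bp in the STAT6 list. The narrowest SOX4 peak was peak 8 at chr7:117554861-117556119, which was also the lowest, and the narrowest STAT6 peak was peak 12 at chr7:117590306-117590630. The widest peak of each list was the last. These were SOX4 peak 21 at chr7:117663987-117669426 and STAT6 peak 25 at chr7:117666637-117669054, which lay at the end of the gene.

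The SOX4 peaks fell into 15 of 1259 to 1692 bp and 6 of 2219 to 5440 bp, a split at 2000 bp that was set after the widths had been seen. The 15 narrower peaks had the summit near the middle, at 46.7% to 55.3% of the width, and each held 0 or 1 STAT6 peak, 13 in all. The 6 wide peaks had the summit at 20.0% to 69.4% of the width and together held 12 STAT6 peaks. Thus 5 of the 6 wide peaks held more than 1 STAT6 peak, with peak 13 as the exception. The fold enrichment of wide and narrower peaks overlapped, with medians of 99.5 and 90.4 and ranges of 70.1 to 148 and 21.4 to 142. Wide peaks made up 28.6% of the SOX4 peaks at CFTR and 6.67% of the SOX4 list. For STAT6 the corresponding shares above 2000 bp were 4% (1 of 25) and 7.79%.

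Peaks were unevenly spaced along the gene. Between neighbouring SOX4 summits the 20 distances ran from 2.60 to 28.3 kb with a median of 6.41 kb (4165 bp from the end of one peak to the start of the next), and 9 were under 5000 bp. Between neighbouring STAT6 summits the 24 distances ran from 1021 bp to 30.8 kb with a median of 3689 bp, and 14 were under 5000 bp. The 3 longest distances ran from 21881 to 28264 bp for SOX4 and from 21860 to 30825 bp for STAT6, and they lay in the same regions of the gene. The longest stretch of CFTR without a SOX4 peak ran for 26683 bp from peak 9 to peak 10, and in the STAT6 list the same region was empty for 30.4 kb. The other long stretches in the SOX4 list lay between peaks 1 and 2, with 22685 bp, and between the summits of peaks 3 and 4, which were 21881 bp apart. The closest STAT6 peaks, 17 and 18, were separated by 474 bp and lay in the same SOX4 peak. The closest SOX4 peaks, 11 and 12, were separated by 882 bp.

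The lists coincided along CFTR. Of the 21 SOX4 peaks, 19 (90.5%, Wilson 95% interval 71.1% to 97.3%) overlapped a STAT6 peak by at least 1 bp, against 14.2% of all SOX4 peaks. Most peaks of the SOX4 list were lower than those at CFTR, so 14.2% is no share at like height. Peak 10 ranked 458 in the list by fold enrichment, and only 2 SOX4 peaks without a STAT6 peak, itself included, stood that high. Peak 8, the lowest at CFTR, ranked 843, and 239 SOX4 peaks without a STAT6 peak stood at least as high. Of the 25 STAT6 peaks, 25 were paired with a SOX4 peak (100%, Wilson 95% interval 86.7% to 100%), against 78.7% of all STAT6 peaks. These intervals cover counting error over peaks only. Neighbouring peaks of 1 gene in 1 library are no replicates, and the gene was picked with its number of peaks known. Both whole-list shares include the peaks at CFTR. Each STAT6 peak at CFTR lay wholly inside a SOX4 peak, as did 826 of the 848 paired STAT6 peaks in the whole list. The SOX4 peaks with 0, 1, 2 and 3 STAT6 peaks numbered 2, 14, 4 and 1.

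**Figure D2:**
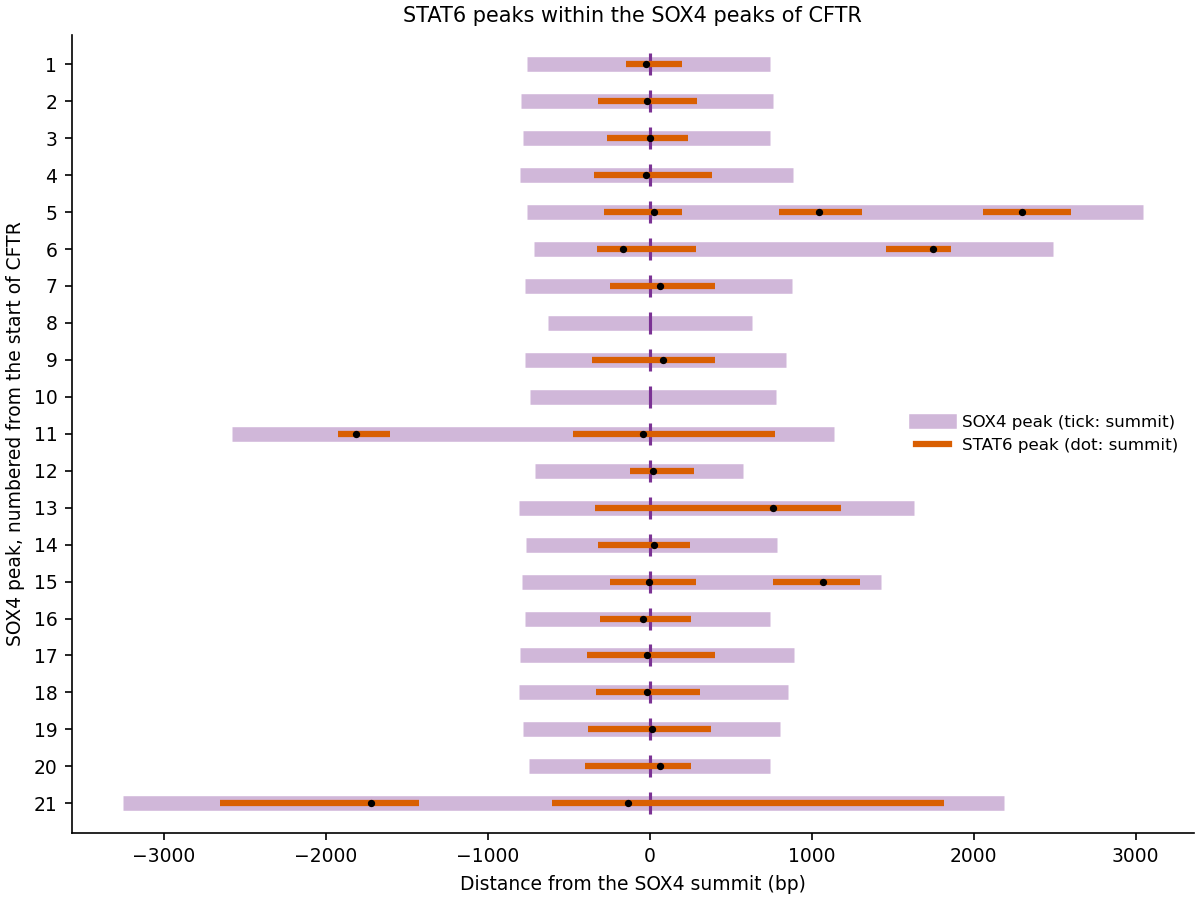
Extent of each of the 21 SOX4 peaks of CFTR (light bars) and of the STAT6 peaks inside them (orange lines), in bp from the SOX4 summit, which is marked by a tick, with STAT6 summits as dots. In 14 rows 1 STAT6 peak lies in the SOX4 peak, in 5 rows there is more than 1, and rows 8 and 10 hold none.

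Summits of the paired peaks were close. Over the 25 pairs the median distance between the SOX4 and STAT6 summits was 43 bp, with a range of 1 to 2298 bp (24 bp over the 19 paired SOX4 peaks when only the nearest STAT6 summit was taken), and the median over all 850 pairs of the lists was 73 bp. At CFTR, 13 pairs had summits within 50 bp, 16 within 100 bp and 18 within 200 bp. The STAT6 summit lay downstream of the SOX4 summit in 13 pairs and upstream in 12, so neither side prevailed. The closest summits, 1 bp apart, were those of SOX4 peak 3 at chr7:117508292-117509821 and STAT6 peak 3 at chr7:117508815-117509312. The farthest, 2298 bp apart, were in SOX4 peak 5 at chr7:117533541-117537345, which held STAT6 peaks 5, 6 and 7. Its summit lay 24 bp from that of STAT6 peak 5, the lowest STAT6 peak of the gene.

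Where a SOX4 peak held a single STAT6 peak, the arrangement was regular. Over these 14 sites the median summit distance was 23 bp, with a range of 1 to 760 bp, and 13 of 14 lay within 100 bp. The 5 SOX4 peaks with more than 1 STAT6 peak are left out here, so the short distances follow in part from the choice of sites. Sites of this kind elsewhere in the list were not compared. The SOX4 peak extended beyond the STAT6 peak by a median of 465 bp (349 to 613 bp) on the left and 487.5 bp (300 to 545 bp) on the right. The STAT6 peak took up a median of 39.5% of the width of the SOX4 peak (23.1% to 62.5%). The site with the distance of 760 bp was SOX4 peak 13 at chr7:117602049-117604488, the only wide peak with 1 STAT6 peak. That STAT6 peak, peak 15 at chr7:117602516-117604040, was 1525 bp wide, the second widest at CFTR.

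The order of the shared sites by fold enrichment was set side by side in both lists. The level of 1 list against the other depends on the depth of both libraries, which is unknown, and was not compared. Across the 19 shared sites of CFTR, the SOX4 fold enrichment and that of the highest STAT6 peak inside had a Pearson r of 0.70 and a Spearman rho of 0.63, and r was 0.59 over the 17 sites left without the 2 SOX4 values farthest from the median. The sites lie in 1 gene, come from 1 library per list and have the same IgG control, so these values are a description without a test.

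**Figure D3:**
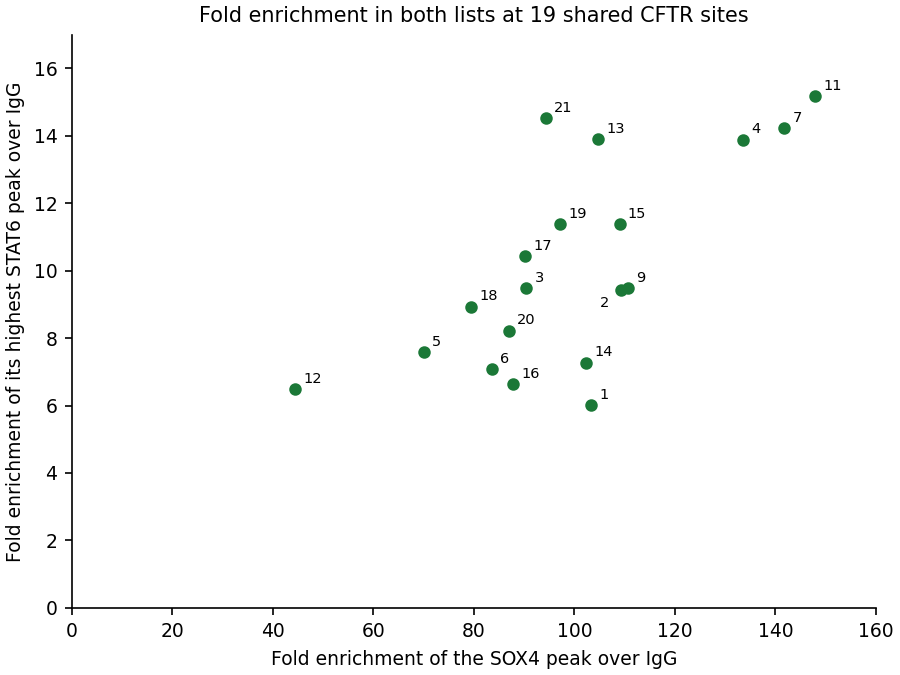
Fold enrichment over IgG of the SOX4 peak (x axis) and of the highest STAT6 peak inside it (y axis) at the 19 shared sites of CFTR, labelled by SOX4 peak number. Sites 11, 7 and 4 are high in both lists, and the promoter, site 1, has a SOX4 value of 103 and the lowest STAT6 value, 6.01.

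The sites of peaks 4, 7 and 11 had the 3 highest SOX4 values and STAT6 values of 13.9, 14.2 and 15.2. The site of peak 12, at chr7:117594254-117595540, had the lowest SOX4 value among shared sites, 44.4, and a STAT6 value of 6.50. The promoter did not follow this order, since 11 shared sites had a lower SOX4 value and none had a lower STAT6 value. The last site of the gene, peak 21, departed from it in the other direction, with 94.3 for SOX4 and 14.5 for STAT6.

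Both SOX4 peaks without a STAT6 peak lay in the middle of CFTR. Peak 8, at 75.5 kb from the start, had a fold enrichment of 21.4. In the SOX4 list, 239 of the 3873 peaks without a STAT6 peak had at least this value. Peak 10, at chr7:117587038-117588557 and 108 kb from the start, had a fold enrichment of 73.6, above the paired peaks 5 and 12 of the gene. Its −log10 q of 614 was above that of peak 12 (350) and below that of peak 5 (788). Only 2 of the 3873 SOX4 peaks without a STAT6 peak had a fold enrichment that high, peak 10 included. The 19 paired SOX4 peaks of CFTR had a median of 97.1, close to the 95.5 of all paired SOX4 peaks, while the median of SOX4 peaks without a STAT6 peak was 5.22 over the list.

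The RefSeq table places 2 long noncoding RNA genes inside the borders of CFTR, CFTR-AS1 at chr7:117542521-117564676 and CFTR-AS2 at chr7:117604791-117647415. By position, 4 SOX4 and 2 STAT6 peaks of CFTR also overlapped CFTR-AS1, and 6 SOX4 and 7 STAT6 peaks overlapped CFTR-AS2. The promoter window of CFTR-AS1 overlapped 0 peaks of either list. Peaks have no strand, so those in the overlap cannot be assigned to one of the genes. Whether the peaks lay in exons, introns or UTRs of CFTR was not analysed here.

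The surroundings of CFTR held few peaks. The window of the gene with its margin measured 190641 bp, and SOX4 peaks covered 23% of it and STAT6 peaks 9.63%. The upstream flank of the same length held 1 SOX4 peak, which covered 0.805% of it, and 0 STAT6 peaks. The downstream flank held 0 of either. The gene was chosen for its peaks, so this difference was fixed in part by the choice and is not tested.

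The single flank peak, chr7:117450310-117451844, lay outside the margin and is not a member. It lay 28.2 kb before CFTR in the uncharacterized gene LOC105375468. Its fold enrichment of 21.7 and −log10 q of 118 were near those of SOX4 peak 8, and like that peak it overlapped no STAT6 peak. Its width of 1535 bp was nearer the median of the SOX4 peaks at CFTR than the 1259 bp of peak 8. Beyond it, the next SOX4 peak was 482 kb upstream in ST7, with a fold enrichment of 2.53, and 1189 kb downstream, with 3.28. The nearest STAT6 peaks outside the gene were 670 kb upstream (3.52) and 1826 kb downstream (6.32).

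Of the 3 nearest protein-coding genes on each side, only ST7, 250 kb upstream, held a peak, and it was the single SOX4 peak just given. ASZ1, a germ cell gene 52.5 kb upstream, and WNT2, a secreted Wnt ligand 157 kb upstream, held none. CTTNBP2, which encodes a cortactin-binding protein 42.0 kb downstream, held none either. LSM8, a component of the spliceosome at 515 kb, and ANKRD7, at 556 kb, were also without a peak.

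CFTR was among the genes with the most peaks in both lists. Of 20033 protein-coding genes, 6.35% held a SOX4 peak in the gene or its margin, 1.08% held a STAT6 peak and 1.03% held both. By the number of peaks, CFTR ranked 5 in each list. Among the 3008 protein-coding genes of 0.5 to 2 times its length, 482 had a SOX4 peak and 43 had a STAT6 peak, and all of these 43 had both. Of these 3008 genes, 4 held at least 21 SOX4 peaks and 4 held at least 25 STAT6 peaks, CFTR included. The highest numbers in this length range were 30 SOX4 and 54 STAT6 peaks.

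The genes nearest to CFTR in their numbers of peaks, by the sum of the differences in both lists, were ABCB1, ZSCAN25, F5, CACNA1S and DPYD. ABCB1, which encodes the drug efflux pump P-glycoprotein, was the nearest with 22 SOX4 and 29 STAT6 peaks, a difference of 5 peaks. Its length of 210 kb, its covered shares of 24.9% and 11% and its median fold enrichments of 98.2 and 8.22 were close to those of CFTR. Like CFTR it had few SOX4 peaks without a partner, since 21 of 22 SOX4 and 29 of 29 STAT6 peaks of ABCB1 overlapped the other list. ABCB1 overlaps RUNDC3B, so its peaks cannot be assigned to 1 gene by position.

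ZSCAN25, a zinc finger gene, had 16 SOX4 and 27 STAT6 peaks. However, it overlaps the steroid and drug hydroxylase genes CYP3A5 and CYP3A7 and the readthrough gene CYP3A7-CYP3A51P. F5, which encodes coagulation factor V, had 16 and 22, and CACNA1S, the pore subunit of the skeletal muscle calcium channel, had 14 and 27. Both are shorter than CFTR, and SOX4 peaks covered 51.5% and 60.1% of them. DPYD, the first enzyme of pyrimidine breakdown, had 23 and 17 peaks over 843 kb, so that SOX4 peaks covered 4.18% of it. Median SOX4 fold enrichments in these 4 genes were 111, 66.0, 86.0 and 71.7, all far above the 5.88 of the list, and those of STAT6 were 9.48, 6.78, 6.28 and 6.80. CFTR was thus not alone in high and paired SOX4 peaks over the gene body, and nothing of a common function is drawn from the likeness. As background, CFTR, ABCB1, F5, CACNA1S, DPYD and CYP3A5, which overlaps ZSCAN25, are genes that drug-response sequencing panels often hold. The peaks counted at ZSCAN25 were not assigned to CYP3A5 or to the other genes there. Whether DNA other than that released at antibody-bound sites, such as that of a gene panel, was among the reads was not tested, and this limits the reading of the peak numbers, fold enrichments and pairing at CFTR.

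**Figure D4:**
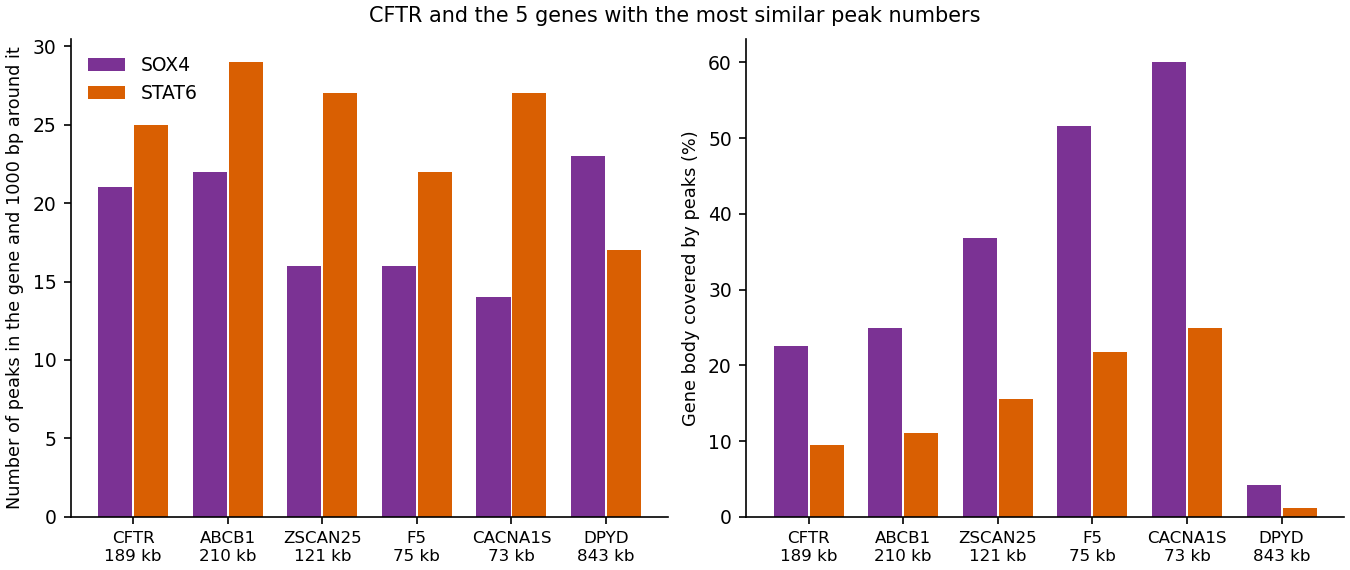
Number of SOX4 and STAT6 peaks in the gene and its margin (left) and percent of the gene body they cover (right) for CFTR and the 5 protein-coding genes with the most similar numbers, with gene lengths in kb. ABCB1 lies closest to CFTR in both plots, whereas the shorter F5 and CACNA1S have SOX4 peaks over 51.5% and 60.1% of the gene.

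The family and the pathway of CFTR held few peaks, as did protein-coding genes in general, of which 6.35% had a SOX4 peak and 1.08% a STAT6 peak. Of the other 11 genes of the ABC transporter C family that were listed, which export conjugates and drugs or regulate potassium channels, 1 had a SOX4 peak, 0 had a STAT6 peak and 10 had no peak. The one was ABCC3, an exporter of bile salts and conjugates, with 1 SOX4 peak of fold enrichment 3.12. This peak lay in the margin of 1000 bp only, and SOX4 peaks covered 0% of ABCC3 itself. Of 20 genes for epithelial chloride, bicarbonate and sodium transport and its control, 2 had a SOX4 peak and 0 had a STAT6 peak. KCNQ1, a potassium channel subunit, had 2 SOX4 peaks with a median fold enrichment of 7.31, and SLC12A2, the basolateral sodium, potassium and chloride cotransporter, had 1 of 3.64. The median number of peaks per gene was 0 in both sets, as it was over all protein-coding genes. Counts this small in lists of 11 and 20 genes lie near the shares over all genes and are no result about the family or the pathway. The 3 genes with a peak had fold enrichments below the lowest SOX4 peak of CFTR.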

How the data were processed

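CUT&RUN libraries for IgG, SOX4 and STAT6 (1 each) were prepared from Hep3B cells. The submitters' processing notes name Partek, BWA and hg38. The peak caller, its threshold, the way it set the IgG background and any removal of duplicate or multiply mapping reads are not given in the sources used here. The authors deposited a peak list for SOX4 and one for STAT6, each with IgG as control, holding start, end and summit of each peak, its fold enrichment as a ratio to IgG, its −log10 p, its −log10 q and a display score, the last not used here. The files hold no read counts, so depth and its effect on the number, width and height of peaks are unknown, and levels of fold enrichment were compared only within a list, the lists being set side by side by the order of their shared sites. A missing peak does not show a missing signal.

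Positions were made 1-based. Gene ends and promoter sequences came from RefSeq (GRCh38.p14), and 20033 placed protein-coding genes were used. No genome sequence was used, so exons and the sequences of peaks inside CFTR were not analysed here. Peaks were taken as paired when they overlapped by at least 1 bp. Wilson intervals cover counting error only. The counts of overlapping peaks, the covered length and the pairing by overlap were tested on simulated data. Spacing and summit distances were not tested in this way. Peaks named were the first, last, highest, lowest, widest and narrowest of each list, the closest and farthest summit pair, peaks without a partner and, outside CFTR, the 3 nearest genes on each side and the 5 genes most similar in peak numbers. Further peaks (SOX4 peaks 4, 5, 7, 12 and 13, STAT6 peaks 15 and 24 among them) and the split at 2000 bp were added after the values had been seen. The members and gene lists were chosen with earlier results of these data known. Python 3.11.15, numpy 2.4.6, scipy 1.17.1 and pandas 2.3.3 were used.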

Additional observations from a re-analysis of the deposited data

How the results depend on the processing

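For 15 results on CFTR, 46 alternatives were computed. They comprised a −log10 q or a fold enrichment of at least 5, other margins and flanks, merged entries, other definitions of overlap and coverage, and paired peaks alone. A value was taken as moved when a count or covered share changed by over 1.5 times, a share left its Wilson interval, or a median left the 95% interval given by the ordered values. By these rules 6 alternatives moved the value and 40 did not. Some of the 40 could not have moved it. The cutoffs of 5 removed no peak at CFTR, where the lowest −log10 q was 6.98 and the lowest fold enrichment 5.51. Merging entries within 100 bp could join none, as the smallest gaps were 882 bp for SOX4 and 474 bp for STAT6. Restriction to paired peaks left all 25 STAT6 peaks in place. Of the 40, 2 changed the value by over 1.5 times inside a wide interval. The first was the median summit distance, 24 bp against 43 bp with the nearest STAT6 summit of each SOX4 peak. The other was the median SOX4 spacing, 4165 bp as a gap against 6407.5 bp between summits. The covered share of CFTR fell to 2.21% for SOX4 and 2.62% for STAT6 when 200 bp around each summit were counted, which follows from the narrower stretches. When each peak of a pair had to be covered to at least 50%, 4.76% of SOX4 and 4% of STAT6 peaks were paired, since STAT6 peaks were narrower than the SOX4 peaks around them. With summits within 200 bp, 72.0% of STAT6 peaks were paired. Flanks that began 50000 bp from the window held 0 SOX4 peaks, as the only flank peak lay nearer. No paired analysis was possible because no antibody was used on more than 1 library. For the same reason no library could be left out, and the spread between libraries is unknown.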
